A study of Mus musculus with 4 samples.

Results

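Goblet cells are the mucus-producing cells of the intestinal epithelium. The transcription factor genes Atoh1 and Spdef set their secretory fate and maturation, the endoplasmic reticulum protein encoded by Agr2 helps fold the mucin encoded by Muc2, and the mature cell releases that mucin with further proteins that build and arm the mucus layer. The genes described here are Muc2, Clca1, Tff3, Fcgbp, Agr2, Zg16, Spdef, Retnlb, Spink4 and Atoh1. They were found on the arrays through the RefSeq accession that each non-control probe carries. Of these 10 genes 9 had a probe, out of 20659 genes that could be named on the arrays, and each of the 9 had 1 probe with 1 spot per array. No probe carried the Muc2 accession of the gene table used here, so Muc2 was not analysed here. All 9 probes were well above background on each of the 4 arrays, with no spot marked as saturated or as an outlier.

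The samples were lamina propria lymphocytes (LPLs), immune cells of the tissue layer under the gut epithelium, of C57BL6 mice, taken at day 10 of a model in which dextran sulfate sodium (DSS) injures the colon lining and causes colitis. All 4 groups had received DSS: Stat4-/- mice with DSS and LIF, Stat4-/- mice with DSS alone, wild-type mice with DSS and LIF, and wild-type mice with DSS alone. LIF is leukemia inhibitory factor, a cytokine, and Stat4 encodes a transcription factor of cytokine signalling. Each group had 5 mice and 1 array, and the labels do not state whether RNA was pooled, so differences between groups have no replicate check and none carries a p-value. Levels are log2 intensities relative to the 75th percentile of the array, and a difference of at least 1 on that scale (2-fold) is counted as higher or lower.

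The arrays differed in brightness and 1 of them stood apart. The 75th percentile of the intensity was 43.3 on the LIF-treated Stat4-/- array, 45.3 on the Stat4-/- array with DSS alone, 23.8 on the LIF-treated wild-type array and 123 on the wild-type array with DSS alone. Over the 12726 probes that every array measured above background, the LIF-treated wild-type array correlated with the others at no more than 0.817, whereas the other arrays correlated with each other at 0.951 to 0.980. These correlations are across probes, which are not independent replicates. The DSS arrays of the genotypes were read in the same scan, and the LIF arrays in a scan each, so LIF and scan cannot be told apart. The probe of Stat4 itself did not separate the genotypes, with a Stat4-/- minus wild type difference of -0.70 under DSS and LIF and 0.80 under DSS, and the sources used here do not say whether the deletion covers it. The Stat4-/- arrays are therefore called labelled knockout below, and directions between the genotypes follow the labels.

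Epithelial transcripts were present in these lymphocyte preparations. Of 12 pan-epithelial markers, 11 were well above background in labelled knockout with DSS and LIF, 11 in labelled knockout with DSS alone, 10 in wild type with DSS and LIF and 12 in wild type with DSS. In the same order, 8, 9, 7 and 9 of 9 leukocyte markers were well above background. The sum of the linear levels of the pan-epithelial markers, in units of the array's 75th percentile, was 179, 192, 288 and 164 in that order, and that of the goblet genes was 218, 224, 532 and 229. Lgals4 was the brightest of the pan-epithelial markers, at 7.87 in wild type with DSS and LIF and 6.98 in wild type with DSS, and so carried most of their sum. Epcam (-2.64), Krt19 (-1.66) and Krt8 (-1.56) were lower with DSS and LIF than with DSS in wild type, against the direction of the sum, and Cdh17 was not well above background on the LIF-treated wild-type array. In such bulk samples, fewer goblet cells and less RNA per goblet cell cannot be told apart.

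The regulators of the goblet program were lowest in labelled knockout with DSS, although with normexp background correction, with or without an offset, Spdef was lowest in labelled knockout with DSS and LIF. Atoh1, the basic helix-loop-helix factor required for the secretory lineages of the intestine, had a log2 level of 1.06 in labelled knockout with DSS and LIF, -0.19 in labelled knockout with DSS alone, 3.20 in wild type with DSS and LIF and 1.57 in wild type with DSS. Spdef, the ETS factor of goblet cell maturation, stood at 3.09, 2.57, 4.19 and 3.66 in the same order. For each of these genes the 4 arrays thus had the same order, with wild type above labelled knockout and DSS and LIF above DSS alone within each genotype, although with normexp and an offset of 50 Spdef stood lower with LIF in both genotypes. Agr2, the disulfide isomerase gene of the mucin-folding machinery, varied least in the reported scaling, with levels of 5.20, 4.66, 5.13 and 5.03. Its levels in labelled knockout with DSS and LIF, wild type with DSS and LIF and wild type with DSS lay within 0.20 of their neighbours in the order, which is the error that the scanner software itself estimates for such a difference. With normexp Agr2 was highest in wild type with DSS and lowest in labelled knockout with DSS and LIF. The latter minus the former was -1.21 with an offset of 50 and -1.28 without one, against 0.16 in the reported scaling.

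Promoters of 4 members are shown as examples of the patterns met on the arrays in the reported scaling: the regulators Atoh1 and Spdef, which shared an order, the mucus gene Fcgbp, which had another, and Agr2, which was near-constant in that scaling. RefSeq (GRCm38.p6) promoter sequences were matched by symbol for 5 of the 10 genes, and the 250 bases before the start of the table's transcript are printed for Atoh1 (chr6:64728875-64729124, plus strand), Spdef (chr17:27728952-27729201, minus strand), Fcgbp (chr7:28070986-28071235, plus strand) and Agr2 (chr12:35992675-35992924, plus strand). The Spdef window lies inside the span that the gene table gives for Spdef. Capitals mark matches to any of the motifs searched on either strand, which were the E-box CAGCTG, the forkhead motif TGTTTAC, the CDX motif TTTATGG, the TATA box TATAAA and the XBP1 motif TGACGTG.
Atoh1: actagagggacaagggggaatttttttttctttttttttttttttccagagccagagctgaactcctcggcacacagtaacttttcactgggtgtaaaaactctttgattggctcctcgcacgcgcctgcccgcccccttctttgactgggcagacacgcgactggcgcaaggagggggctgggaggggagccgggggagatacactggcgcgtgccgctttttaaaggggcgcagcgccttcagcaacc
Spdef: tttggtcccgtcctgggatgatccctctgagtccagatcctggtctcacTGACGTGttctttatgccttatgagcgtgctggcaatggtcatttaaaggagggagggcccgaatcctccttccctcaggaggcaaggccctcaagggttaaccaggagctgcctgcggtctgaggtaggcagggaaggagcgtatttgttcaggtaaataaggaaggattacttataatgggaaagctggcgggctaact
Fcgbp: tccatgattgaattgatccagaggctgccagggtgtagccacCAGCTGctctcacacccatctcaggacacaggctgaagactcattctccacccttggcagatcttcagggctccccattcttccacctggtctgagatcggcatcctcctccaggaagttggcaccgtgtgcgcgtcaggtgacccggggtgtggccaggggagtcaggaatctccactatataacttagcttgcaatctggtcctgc
Agr2: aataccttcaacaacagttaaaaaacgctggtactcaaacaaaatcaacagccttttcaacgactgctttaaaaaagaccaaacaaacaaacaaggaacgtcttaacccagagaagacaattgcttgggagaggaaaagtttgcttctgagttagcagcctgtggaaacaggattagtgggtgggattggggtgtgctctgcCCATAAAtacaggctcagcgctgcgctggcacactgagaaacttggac
The Fcgbp promoter held the E-box at -208 to -203 from the start, and 13.0% of 32851 promoters of the same length hold that motif. The Spdef promoter held the XBP1 motif at -201 to -195 (1.65% of promoters) and the Agr2 promoter the CDX motif on the other strand at -48 to -42 (2.43% of promoters). No forkhead motif was found (3.17% of promoters hold it), and the TATA box letters (12.4% of promoters) were found in the promoter of Muc2 alone, which also held an E-box at -112 to -107. None of the motifs matched the Atoh1 window. These matches describe letters in a window, and no binding was measured.

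The mucus components Fcgbp, Clca1, Zg16 and Tff3 were each lowest in wild type with DSS, except that Tff3 was lowest in labelled knockout with DSS and LIF with normexp. Fcgbp, which encodes an IgG Fc binding protein found in mucus with the Muc2 mucin, had levels of 1.45 in labelled knockout with DSS and LIF, 0.25 in labelled knockout with DSS alone, -0.34 in wild type with DSS and LIF and -1.29 in wild type with DSS. Both labelled knockout levels of Fcgbp thus lay above both wild-type levels. Clca1, a secreted metalloprotease of mucus, had levels of 0.49, 0.90, 3.99 and -0.76 in the same order. Zg16, a lectin that binds bacterial peptidoglycan, had levels of 4.57, 4.35, 5.50 and 2.76. Tff3, a trefoil peptide gene linked to epithelial restitution, had levels of 3.65, 4.16, 6.17 and 2.98. Clca1, Zg16 and Tff3 shared a high level in wild type with DSS and LIF, intermediate levels in both labelled knockout arrays and a low level in wild type with DSS. With normexp the intermediate place was lost for Tff3, whose labelled knockout level with DSS and LIF lay below the wild-type level with DSS, by -0.65 with an offset of 50 and -0.72 without one, against 0.67 in the reported scaling. For Zg16 the same difference shrank from 1.81 to 0.20 and 0.17, near the 0.20 software error of its differences. For Clca1 it went from 1.25 to 0.60 and 0.87.

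The remaining secreted products were ordered in another way. Spink4, which encodes a Kazal-type protease inhibitor of goblet cells, had levels of 4.81 in labelled knockout with DSS and LIF, 4.60 in labelled knockout with DSS alone, 7.06 in wild type with DSS and LIF and 5.11 in wild type with DSS. Retnlb, which encodes the resistin-like molecule RELMbeta that goblet cells secrete, had levels of 6.68, 6.98, 7.66 and 7.03. In the reported scaling Spink4 was thus close on 3 arrays and high on the LIF-treated wild-type array. Retnlb varied little there, with labelled knockout and wild type under DSS only 0.05 apart. With normexp, Retnlb in labelled knockout with DSS and LIF minus wild type with DSS was -1.92 with an offset of 50. It was -1.98 without one, against -0.35 in the reported scaling. For Spink4 the same difference was -1.67 and -1.75, against -0.29. Across the 9 genes, 7 were highest in wild type with DSS and LIF and 2 in labelled knockout with DSS and LIF (Fcgbp and Agr2). Of 8074 genes measured on all arrays, 53.4% were highest on the former array and 14.5% on the latter. The lowest array was wild type with DSS for 4 genes, labelled knockout with DSS for 4 (Agr2, Spdef, Spink4 and Atoh1) and labelled knockout with DSS and LIF for Retnlb. Of the 8074 genes 30.9%, 21.6% and 20.8% were lowest on these arrays in the same order. With normexp, 5 genes were lowest in labelled knockout with DSS and LIF, 1 in labelled knockout with DSS and 3 in wild type with DSS, and with an offset of 50 the genes highest in wild type with DSS and LIF numbered 5. The median range between the highest and the lowest array was 2.74 for the goblet genes and 1.29 for all genes, and without the LIF-treated wild-type array it was 1.18 and 0.63.

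**Figure D1:**
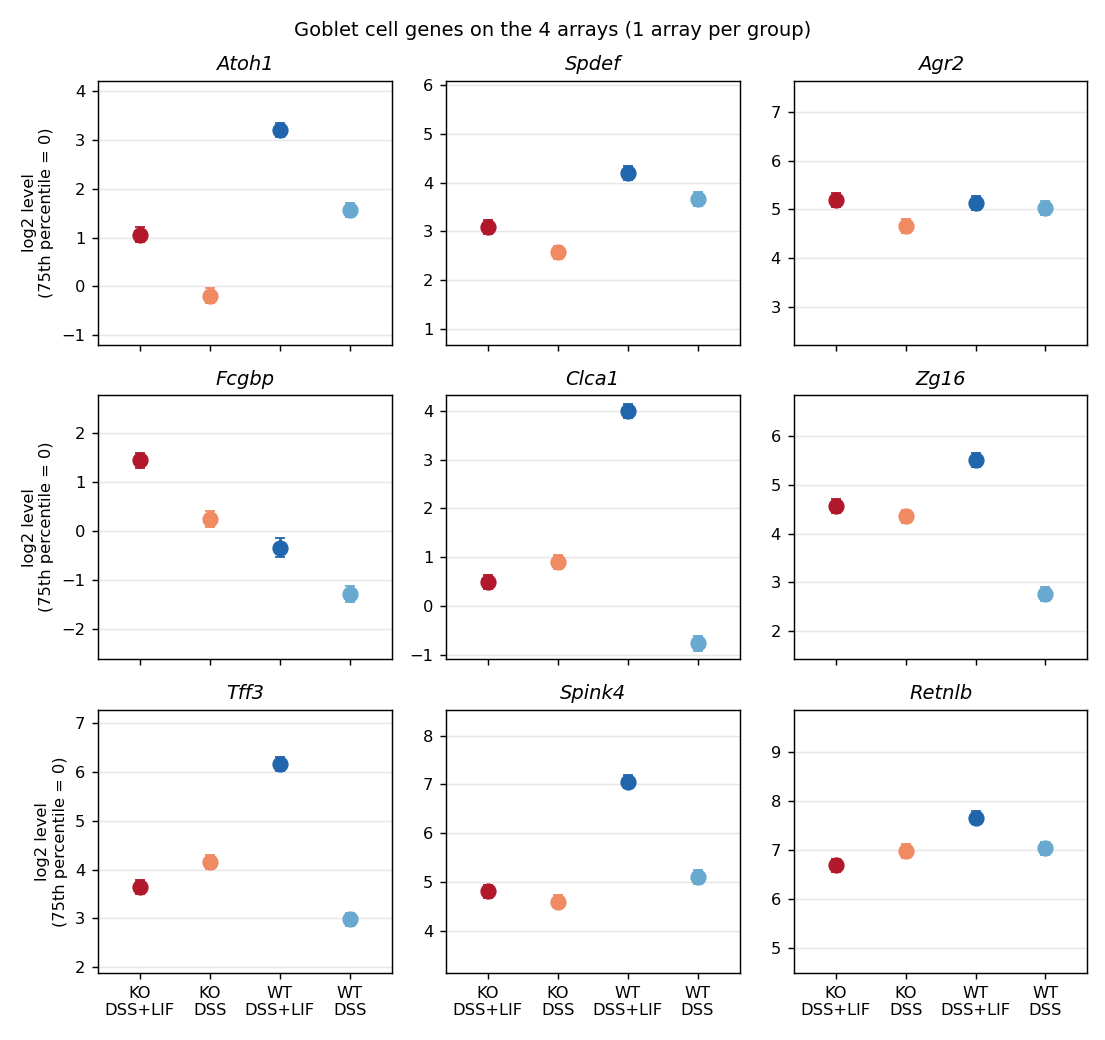
Log2 levels (array 75th percentile set to 0) of the 9 goblet genes on the 4 arrays, 1 point per array, with bars of 1 software error of the spot on either side; every panel spans the same number of log2 units. Atoh1 and Spdef have their lowest point in KO (labelled knockout) with DSS, at -0.19 and 2.57, while Fcgbp, Clca1, Zg16 and Tff3 have theirs in WT (wild type) with DSS; with normexp background correction the lowest points of Spdef and Tff3 are in KO with DSS and LIF.

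Under DSS alone, labelled knockout and wild type differed in opposite directions for the mucus components and for the regulators. Of the 9 genes 4 were at least 2-fold higher in labelled knockout, against 13.2% of 10530 measured genes, and 2 were at least 2-fold lower, against 6.94%. The higher genes were Clca1 (3.15-fold), Zg16 (3.01-fold), Fcgbp (2.91-fold) and Tff3 (2.27-fold), and the lower ones were Atoh1 (3.38-fold) and Spdef (2.12-fold). Their log2 differences were 1.66, 1.59, 1.54, 1.18, -1.76 and -1.09, each with a software error of 0.20 to 0.22 that covers 1 spot per array and no difference between mice. Spink4 (-0.51), Agr2 (-0.37) and Retnlb (-0.05) differed by less than 2-fold. The members' median was -0.05, close to the 0.07 of all measured genes, with members on both sides of it. Before any scaling, the Clca1, Fcgbp and Zg16 spots were also brighter in labelled knockout, although its 75th percentile was 2.71-fold lower: 84.2, 53.9 and 923 intensity units in labelled knockout against 72.6, 50.3 and 833 in wild type. These gaps before scaling were no larger than about the software error of the difference. The Tff3 spot was dimmer in labelled knockout before scaling (809 against 969). With normexp background correction and an offset of 50, all 9 directions were kept but the 4 higher genes stood at 0.59 to 0.89 and none reached 2-fold, while Spink4 (-1.06) joined the lower ones.

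Other genes of the goblet program leaned lower in labelled knockout under DSS, apart from the paralogs. Of all measured genes 13.2% were higher and 6.94% lower, with a median of 0.07. Of 13 measured transcription factor and Notch genes of secretory fate 5 were lower and 1 higher, with a median of -0.49. Klf4, a factor of goblet cell differentiation, was at -1.41 and Creb3l4, a membrane-bound factor of the OASIS family, at -1.29, while the Notch ligand gene Dll4 was at 2.41. Among 11 measured mucin glycosylation enzymes 4 were lower and 1 higher (median -0.56), with the core 1 synthase chaperone C1galt1c1 at -1.64 and the branching enzyme Gcnt1 at -1.47. The sialyltransferase gene St6galnac1 was at 1.47 by its brightest probe and 0.19 by another. Of 10 measured genes listed as other goblet products 3 were lower and 0 higher (median -0.47). Lypd8 (-1.88), which encodes a protein that keeps flagellated bacteria from the epithelium and is not specific to goblet cells, was lowest. The kallikrein gene Klk1 (-1.59) followed it. Muc4 alone of 5 other measured mucins passed 2-fold, at -1.24 by its brightest probe and 0.13 by another. With normexp the lower glycosylation enzymes numbered 1 with an offset of 50 and 2 without one. In those settings the median of other goblet products was -0.14 and -0.29, and that of secretory fate genes -0.50 and -0.44.

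Paralogs of the goblet genes split as well. Of 5 measured, 3 were higher and 2 lower in labelled knockout under DSS, against 13.2% and 6.94% of all measured genes. Retnlg, the resistin-like gene of neutrophils, was at 2.84, and Retnla, the resistin-like gene of alternatively activated macrophages, was at -2.60. Retn was at 1.61 by its brightest probe and -2.44 by another, so its direction depended on the probe, and Clca4b was at -1.24. The trefoil gene Tff1 was well above background in labelled knockout and not in wild type, at least 5.68-fold higher. Among cytokine genes that act on goblet cells Il4 was at -2.10 and the receptor gene Il13ra1 at -1.19, and 3 others of 5 measured were within 2-fold. Il13 was not well above background on any of the 4 arrays.

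Markers of other cell types also differed in this comparison, in which 13.2% of all measured genes were higher and 6.94% lower. Pan-epithelial markers had a median of -0.43, with 1 of 11 lower and 0 higher (Epcam -0.93, Cdh1 -0.20), and absorptive colonocyte markers one of -0.84, with 3 of 7 lower (Slc26a3 -1.76, Car1 0.05). Paneth cell markers had a median of 1.00, with 3 of 5 higher (Lyz1 1.00, Mmp7 1.38), and stromal markers one of 2.42, with 3 of 3 higher (Col1a1 2.43, Col3a1 2.14). Leukocyte markers had a median of -0.01 (Ptprc -0.23, Cd3e -0.01). Enteroendocrine markers were split, with 4 of 8 higher and 3 lower and a median of 0.21 (Chga 1.86, Chgb 1.07, Gcg -2.72, Cck -1.41, Sct -1.17), and 3 of 6 pancreatic acinar markers were higher (Prss1 0.52, Pnlip -0.51). The part of these cell types in the goblet gene differences was not tested.

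Under DSS and LIF, most goblet genes were lower in labelled knockout, in a comparison that uses the array that stood apart and 2 scans. Of the 9 genes 5 were at least 2-fold lower, against 31.3% of 8349 measured genes, and 1 was at least 2-fold higher, against 14.2%. Clca1 was 11.3-fold, Tff3 5.72-fold, Spink4 4.74-fold, Atoh1 4.40-fold and Spdef 2.15-fold lower, and Fcgbp was 3.46-fold higher. Retnlb (-0.98) and Zg16 (-0.93) stood just inside the 2-fold limit, and Agr2 (0.06) differed by less than its software error of 0.20. With normexp Agr2 turned to -0.15 with an offset of 50 and to -0.93 without one. The members' median was -1.11 and that of all measured genes -0.45. Relative to the latter, Spdef was at -0.66 and Clca1 at -3.05. With normexp and an offset of 50 the difference of Fcgbp was 0.51, and without an offset 0.72, so the call that it was higher was lost in both. In both settings 7 of the 9 genes were at least 2-fold lower.

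Clca1, Tff3 and Zg16 therefore had opposite signs between genotypes in the DSS and LIF arrays and in the DSS arrays, whereas Atoh1, Spdef and Spink4 were lower in labelled knockout in both. Fcgbp was higher in labelled knockout in both. These comparisons share no array. Of all measured genes under DSS and LIF, 14.2% were higher and 31.3% lower in labelled knockout, with a median of -0.45. Secretory fate genes had 3 of 13 higher and 5 lower under DSS and LIF (median -0.43), with Notch1 at 2.78, Foxa3 at 2.63, Creb3l1 at -2.65 and Creb3l4 at -2.08. Glycosylation enzymes had 1 of 10 higher and 6 lower (median -1.22), with the chain-initiating Galnt12 at -2.21 by its brightest probe and -0.06 by another, and Gcnt3 at -1.88. Genes listed as other goblet products had 4 of 10 higher and 3 lower (median -0.69), led by Pdia5 (3.58), Lypd8 (1.48), Bcas1 (-3.24) and Tgm3 (-3.15). Pan-epithelial markers had a median of -0.43, with 3 of 10 higher and 1 lower (Epcam 2.73, Cdh1 -0.71), near the -0.45 of all genes. That nearness was lost with normexp. With an offset of 50 their median was -0.54 against -0.17 for all genes, with 1 higher and 2 lower. Without an offset it was -1.22 against -0.48, with 1 higher and 6 lower. Colonocyte markers had a median of -2.10, with 4 of 6 lower, leukocyte markers one of -0.95, with 3 of 7 lower, and stromal markers one of 1.81, with 2 of 3 higher. The leukocyte marker Itgam was at -2.93 by its brightest probe and 1.52 by another. For pancreatic acinar markers the median was 3.25, with 4 of 5 higher (Pnlip 3.49), and Prss1 was at least 43.7-fold higher. The part of these cell types in the goblet gene differences was not tested.

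**Figure D2:**
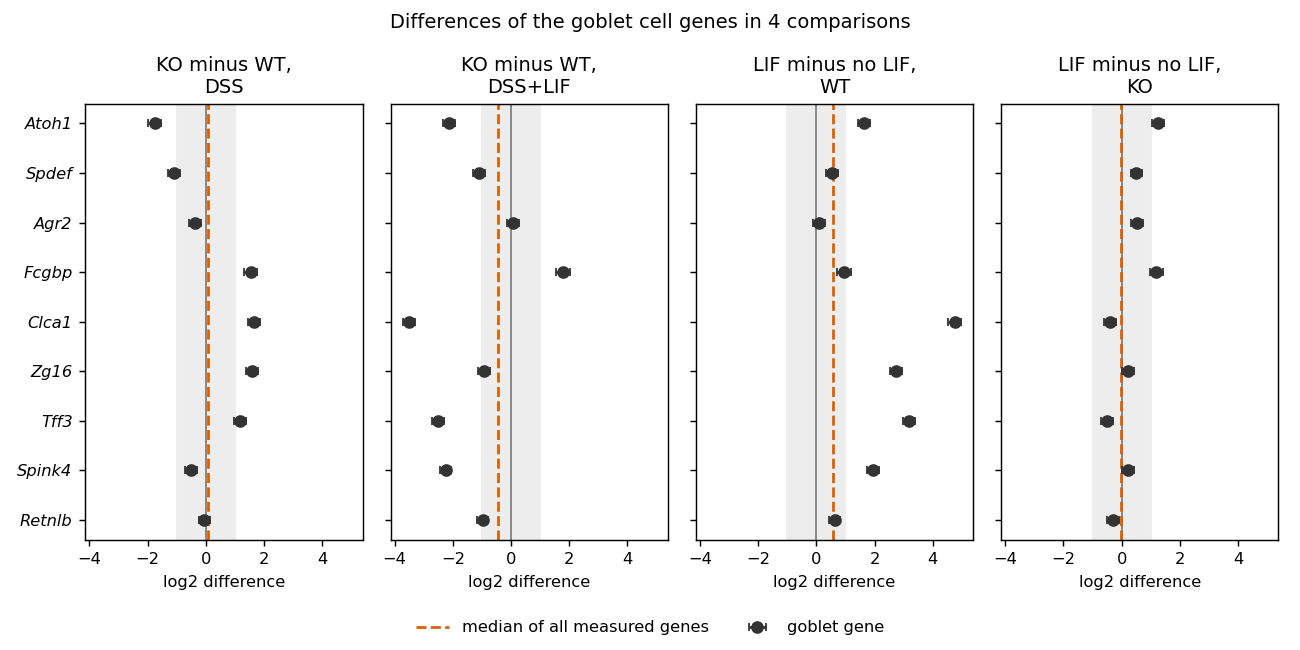
Log2 differences of the 9 goblet genes in the 4 comparisons, KO (labelled knockout) minus WT (wild type) and LIF minus no LIF, with bars of 1 software error, which covers the spots alone. The grey band is less than 2-fold and the dashed line the median of all measured genes; in KO minus WT under DSS, Atoh1 (-1.76) and Spdef (-1.09) lie left of the band and Fcgbp, Clca1, Zg16 and Tff3 right of it.

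With LIF in wild type, Clca1, Tff3 and Zg16 showed the largest differences of any goblet gene under treatment, again on the array that stood apart and across 2 scans. Of the 9 genes 5 were at least 2-fold higher with DSS and LIF than with DSS, against 34.4% of 8984 measured genes, and 0 were at least 2-fold lower, against 13.7%. Clca1 was 26.9-fold, Zg16 6.70-fold, Spink4 3.87-fold and Atoh1 3.09-fold higher, and Tff3 had a log2 difference of 3.19. Fcgbp (0.95), Retnlb (0.63), Spdef (0.53) and Agr2 (0.10) were within 2-fold. The median of all measured genes was 0.57, and relative to it Clca1 stood at 4.18, Tff3 at 2.62, Zg16 at 2.17, Spink4 at 1.38, Atoh1 at 1.06, Fcgbp at 0.38, Retnlb at 0.06, Spdef at -0.04 and Agr2 at -0.47. With scaling to the median of the probes measured on every array the median of all genes was 0.44 and Agr2 turned to -0.03. With normexp and an offset of 50 the median of all genes was 0.06.

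Only Clca1, Tff3 and Zg16 of the 9 genes were also brighter before scaling, on an array whose 75th percentile was 5.17-fold lower. Their intensities with DSS and LIF against DSS were 377 and 72.6 for Clca1, 1707 and 969 for Tff3, and 1079 and 833 for Zg16. The other 6 spots were dimmer with DSS and LIF, among them Spink4 (3168 against 4231) and Atoh1 (219 against 365), so their direction rests on the scaling. With normexp and an offset of 50, Clca1 (2.82), Tff3 (1.88) and Zg16 (1.35) stayed at least 2-fold higher, Spink4 (0.72) and Atoh1 (0.43) did not, and Retnlb (-0.65), Spdef (-0.63) and Agr2 (-1.06) turned to lower.

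The rest of the goblet program was mixed with LIF in wild type. Of all measured genes 34.4% were higher and 13.7% lower, with a median of 0.57. The medians of the secretory fate, glycosylation and other product lists were close to that. Of 13 measured secretory fate genes 4 were higher and 2 lower (median 0.63), with Creb3l1 at 3.29, Creb3l4 at 1.93, the receptor gene Notch1 at -1.99 and the forkhead gene Foxa3 at -1.23. Glycosylation enzymes had 2 of 11 higher and 0 lower (median 0.54), namely Galnt12, at 2.18 by its brightest probe and 0.29 by another, and Gcnt3 at 1.71. Among genes listed as other goblet products 5 of 10 were higher and 4 lower (median 0.60). Bcas1 (3.50) and the transglutaminase gene Tgm3 (2.68) were highest, and the disulfide isomerase gene Pdia5 (-2.89) and Lypd8 (-2.28) lowest. The transmembrane mucin genes diverged, with Muc13 at 2.12 and Muc4 at -1.85. Of 6 measured paralogs 4 were higher, led by Retnla (2.36) and Agr3 (2.18), and Clca4b was lower at -1.76. The medians of the secretory fate, glycosylation and other product lists turned to -0.14, -0.40 and -0.21 with normexp and an offset of 50. Il4ra was at -1.55, Stat6 at -1.06 by its brightest probe and 0.74 by another, and Il13ra1 was at least 5.33-fold lower.

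Epithelial markers did not share one direction in this comparison. Of 10 measured pan-epithelial markers 2 were higher and 3 lower, with a median of 0.53 close to that of all genes (Epcam -2.64, Cdh1 0.62). Of all measured genes 34.4% were higher and 13.7% lower. Colonocyte markers had 3 of 6 higher (median 0.93), with the chloride-bicarbonate exchanger gene Slc26a3 at 1.25 and the carbonic anhydrase gene Car4 at 3.08 by its brightest probe and -0.12 by another. Paneth cell markers had 4 of 5 higher (median 1.56, Lyz1 1.56, Mmp7 -0.61) and stem cell markers 2 of 3 higher (Lgr5 2.96, Ascl2 1.30). Leukocyte markers had a median of 0.69, with 3 of 7 higher (Cd3e 0.69, Cd3g 0.02). Among the higher ones Itgam was at 3.78 by its brightest probe and -0.69 by another. Ptprc was well above background in wild type with DSS and not on the LIF-treated wild-type array. Stromal markers had 1 of 3 higher (Col1a1 1.78, Col3a1 -0.46), pancreatic acinar markers 2 of 5 higher and 2 lower (Pnlip -1.73, Cpa1 -0.12), and enteroendocrine markers, with a median of -0.43, 2 of 8 higher (Chga 1.71, Chgb 1.90) and 1 lower (Neurog3 -8.55). The Neurog3 probe stood at 10.39 in wild type with DSS and 1.85 on the LIF-treated wild-type array. Its labelled knockout levels were 10.82 with LIF and 11.43 without it. Chgb on the LIF-treated wild-type array was at 2.63. Whether that probe reads Neurog3 alone was not tested. Of 5 tuft cell markers Dclk1 alone was measured (1.16). The part of other epithelial cells in the goblet gene differences was not tested.

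**Figure D3:**
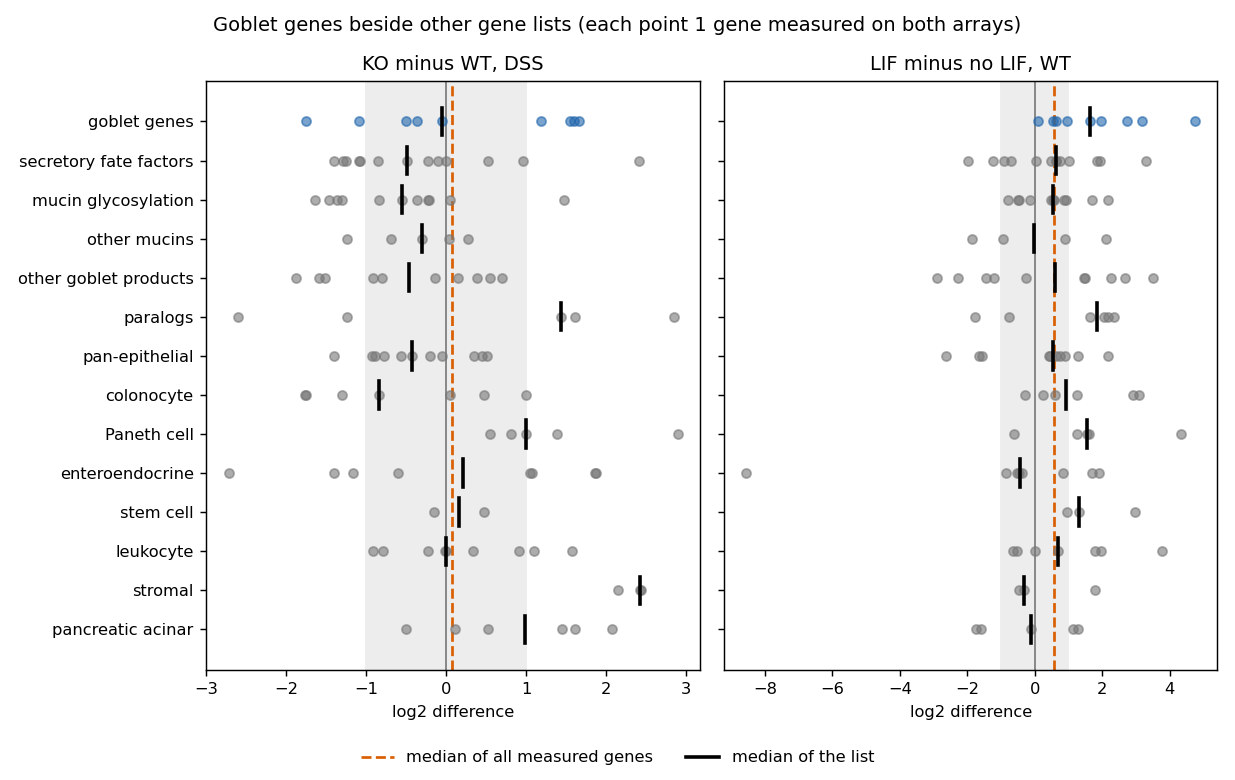
Log2 differences of the measured genes of each list (grey points; goblet genes blue) with the list median (black bar) in KO (labelled knockout) minus WT (wild type) under DSS and in LIF minus no LIF in WT; the panels share the array of WT with DSS, and their x axes differ in range. The goblet genes lie on both sides of 0 in the KO comparison, from -1.76 to 1.66, and all lie above 0 with LIF in WT, from 0.10 to 4.75, where Agr2, Spdef and Retnlb turn to below 0 with normexp and an offset of 50.

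In the labelled knockout, 7 of the 9 goblet genes differed by less than 2-fold with LIF, a count that depended on the background correction. Of the 9 genes 2 were at least 2-fold higher with DSS and LIF than with DSS, against 3.22% of 9782 measured genes, and 0 were at least 2-fold lower, against 3.07%. Atoh1 was 2.38-fold and Fcgbp 2.30-fold higher. Agr2 (0.53), Spdef (0.51), Zg16 (0.22) and Spink4 (0.21) were above 0, and Tff3 (-0.51), Clca1 (-0.41) and Retnlb (-0.30) below it. The members' median was 0.22 and that of all measured genes -0.01. With normexp the higher calls were lost: Atoh1 stood at 0.39 and Fcgbp at 0.30 with an offset of 50, and at 0.54 and 0.30 without one. In the same settings Agr2, Spdef, Zg16 and Spink4 turned to below 0. With an offset of 50 Retnlb (-1.24) and Tff3 (-1.23) were at least 2-fold lower, and without one Tff3 (-1.77), Retnlb (-1.76), Zg16 (-1.19) and Spink4 (-1.11) were.

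With LIF in the labelled knockout, 3.22% of all measured genes were higher and 3.07% lower, with a median of -0.01. Secretory fate genes had 2 of 13 higher and 0 lower (median 0.31), namely Foxa3 (1.62) and Creb3l4 (1.15). Genes listed as other goblet products had 3 of 10 higher and 0 lower (median 0.60), with Klk1 at 1.20. Glycosylation enzymes had 2 of 11 higher, Galnt5 (1.56) and Gcnt3 (1.14). Pan-epithelial markers had a median of 0.53, with Epcam at 1.02 (-0.05 with normexp without an offset) and 0 of 11 lower, and pancreatic acinar markers one of 1.62, with 5 of 6 higher (Prss1 1.96, Pnlip 2.26). With normexp and an offset of 50 the medians of the secretory fate and glycosylation lists turned to -0.09 and -0.21 and the pan-epithelial one to -0.02. In that setting 0 of the 6 acinar markers (median 0.58) and 0 of the 10 other goblet products (median 0.18) were higher. Without an offset 0 acinar markers were higher and 1 lower (median 0.20). Of the other goblet products 1 was then higher and 2 lower (median 0.12).

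The LIF difference of a goblet gene in labelled knockout was set beside that in wild type. Clca1 stood at -0.41 in labelled knockout and 4.75 in wild type, Tff3 at -0.51 and 3.19, Zg16 at 0.22 and 2.74, and Spink4 at 0.21 and 1.95. Retnlb had -0.30 and 0.63, Atoh1 1.25 and 1.63, Spdef 0.51 and 0.53, Fcgbp 1.20 and 0.95, and Agr2 0.53 and 0.10. In the reported scaling, the labelled knockout minus wild type difference of these LIF differences was below 0 for 7 of the 9 genes. It was below 0 for 65.7% of 8074 genes, with a median of -0.93 for the members and -0.53 for all genes. It was -5.15 for Clca1 (0.4th percentile of all genes) and -3.70 for Tff3 (1.3rd percentile), and close to 0 for Spdef (-0.02) and Fcgbp (0.25). Each of these values rests on 4 spots and was not tested. Normexp moved them. Without an offset the LIF differences in labelled knockout and wild type were 0.30 and 0.92 for Fcgbp, -0.67 and 0.05 for Spdef, and -0.76 and -0.35 for Agr2. Each of these genes was thus lower in labelled knockout by this measure. With an offset of 50 Fcgbp had 0.30 and 0.62, and Spdef -0.25 and -0.63.

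The mean profile of the 9 genes, centred on each gene's mean over the 4 arrays, was -0.11 in labelled knockout with DSS and LIF, -0.41 in labelled knockout with DSS alone, 1.18 in wild type with DSS and LIF and -0.65 in wild type with DSS. The 10 other genes closest to it, by the root mean square difference over the 4 arrays (0.03 to 0.06), were Akt1, Polrmt, Glmn, Mbd6, Krr1, Tmem65, Mrpl48, Ggt6, 1700052K11Rik and Dhx58, and none of them belongs to the goblet or cell type lists. The goblet genes themselves lay farther from their mean profile, from 0.43 for Spink4 to 1.18 for Fcgbp. With 4 points per gene, 8065 genes were compared.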

How the data were processed

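Gene expression of lamina propria lymphocytes was measured on 4 one-colour (Cy3) Agilent mouse arrays, 1 per group. The authors' scanner files hold spot intensity values from Feature Extraction, version 11.0.1.1 by the file headers (the submitters' processing notes name 9.1). The processed signal is background-subtracted, and its error is the software's own estimate, per the file headers. The authors' deposited table of log2 values, made comparable between arrays by an unstated method, served as an alternative. Its columns had medians of 3.31 (labelled knockout with DSS and LIF), 3.31 (labelled knockout with DSS alone), 2.54 (wild type with DSS and LIF) and 3.31 (wild type with DSS), and they correlated with the log2 scanner values at 0.971 to 0.992, so higher values are brighter. Its centring stays unknown.

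Control spots and outlier spots were left out, and log2 processed signals minus the array's 75th percentile were averaged over the spots of a probe. The well above background mark was taken from the software and had to hold for 50% or more of a probe's spots. RefSeq accessions without versions named 27234 of the 39429 probes (69.1%) through a gene table of assembly GRCm38.p6, used for names. Of several probes of a gene, the one with the highest mean level stood for it, and a gene was measured where that probe passed on both arrays compared. A gene above background on 1 array alone received a bound against the higher of the dimmest value well above background and its own value there. The software error of a difference is the root of the summed squared relative errors on the log2 scale. Among probes with 3 or more spots, the median SD of a difference was 0.110 to 0.124. The number of arrays limits the precision, and with 1 array per group no test was run. Normexp was run on median signals with limma 3.58.1 in R 4.3.3, and the rest with Python 3.11.15, numpy 2.4.6 and pandas 2.3.3.

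All 10 members were named. Of each goblet program list the 2 highest and 2 lowest measured genes past 2-fold were eligible for naming, of each cell type list the first 2 measured genes, and the 10 genes of most similar profile. Some of these appear in list counts and medians alone. Il13, the genes given as bounds (Tff1, Il13ra1 and Prss1) and the further markers Gcg, Cck, Sct, Neurog3, Lgals4, Krt19, Krt8, Cdh17, Itgam and Foxa1 were named after their values were seen. The members and lists were chosen with earlier results of these data known.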

Additional observations from a re-analysis of the deposited data

Results flagged for a closer look

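Several goblet genes moved in opposite directions in the 2 genotypes or under the 2 treatments, each judged on 1 array per group, and none of these differences was tested. With LIF, Clca1 stood at -0.41 in labelled knockout and 4.75 in wild type, Tff3 at -0.51 and 3.19, and Retnlb at -0.30 and 0.63. Between labelled knockout and wild type, Clca1 was at -3.50 under DSS and LIF and 1.66 under DSS, Tff3 at -2.52 and 1.18, Zg16 at -0.93 and 1.59, and Agr2 at 0.06 and -0.37. For Agr2 the value under DSS and LIF was smaller than its software error of 0.20 and turned to below 0 with normexp, and the value of Retnlb in wild type turned to -0.65 with normexp and an offset of 50. Clca1, Tff3, Zg16 and Retnlb had their highest level on the LIF-treated wild-type array, which stood apart from the others. The part of that array in these opposite directions was not tested.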

How the results depend on the processing

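Counts of goblet genes past 2-fold were within 1.5 times the reported ones in all 4 comparisons with quantile scaling, with median scaling, with the authors' deposited table and with the 2 other filters and the mean over probes. The last 3 could not move the members, since each had 1 probe, measured on every array. Normexp moved counts. With an offset of 50, 3 genes were higher and 1 lower for LIF in wild type, 0 were higher and 2 lower for LIF in labelled knockout, 0 were higher in labelled knockout under DSS and 0 under DSS and LIF. Without an offset, 0 were higher and 4 lower for LIF in labelled knockout and 0 were higher in labelled knockout under DSS and LIF. No goblet gene reported past 2-fold changed sign in any of these settings. Of those reported within 2-fold, Agr2 passed it with the other sign for LIF in wild type with an offset of 50 (-1.06), as did Zg16 (-1.19) and Spink4 (-1.11) for LIF in labelled knockout without one. Among the other lists, 4 genes reported past 2-fold changed sign under a scaling: Foxa1 for LIF in wild type (1.02, and -0.12 with an offset of 50), Epcam (1.02 and -0.05) and Cpa1 (1.31 and -0.18) for LIF in labelled knockout without an offset, and Neurog3 in labelled knockout under DSS (1.04, and -0.04 with quantile scaling). The cause of the normexp shifts was not tested. With an offset of 50, the shares of all genes at least 2-fold higher and lower were 3.12% and 7.78% in labelled knockout under DSS, 5.23% and 14.4% in labelled knockout under DSS and LIF (7 goblet genes lower), 8.85% and 17.1% for LIF in wild type and 0.0613% and 8.87% for LIF in labelled knockout. Without an offset they were 4.42% and 24.2% for LIF in labelled knockout and 5.45% and 34.0% in labelled knockout under DSS and LIF. No paired analysis was possible because each group has 1 array, which also leaves no replicate to leave out.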

Other observations

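Itln1, an intelectin gene that goblet and Paneth cells of the mouse express and that is no member of the goblet list, was chosen after its values were seen. Its log2 difference between labelled knockout and wild type was -2.48 with LIF and 2.89 without it, and its LIF difference was -1.05 in labelled knockout and 4.32 in wild type. Unlike the 9 goblet genes it had a second measured probe, with differences of -2.09, 2.92, -1.10 and 3.91 in the same order, so both probes gave the signs of Clca1 and Tff3 in all 4 comparisons.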
